A study of Mus musculus with 2 samples.

Results

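The 9 genes described here encode enzymes and a transporter of epidermal barrier lipids: Alox12b, Aloxe3, Abca12, Cers3, Pnpla1, Sdr9c7, Them5, Smpd3 and Elovl4. They were taken by symbol from the 19465 genes of the deposited count matrices, and each symbol had 1 row, with an Ensembl identifier such as ENSMUSG00000030510 for Cers3 and ENSMUSG00000032262 for Elovl4. Spatial transcriptomics was performed on 1 section of skin from an imiquimod (IMQ)-treated S1pr2fl/fl mouse, S1pr2 f/f in the labels, and 1 from an IMQ-treated S1pr2fl/fl K14-Cre mouse. Both mice were 8 weeks old, had their back depilated 1 day earlier and received 62.5 mg of 5% IMQ cream, which causes psoriasis-like inflammation, on each of 7 days. Both carried S1pr2 (sphingosine 1-phosphate receptor 2) alleles flanked by loxP sites. In the K14-Cre mouse, Cre under the keratin 14 promoter deletes S1pr2 in cells in which that promoter is or was active, which includes basal keratinocytes, hair follicles and sebaceous glands, and dermal cells keep the gene. No section of untreated skin and no second section of either genotype was analysed here, so every difference between the sections has no replicate check, no p-value is given, and the 95% intervals cover counting error only.

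The S1pr2fl/fl section held 1282 spots over tissue with 5315351 unique molecular identifiers (UMIs, each the tag of 1 captured probe molecule), and the S1pr2fl/fl K14-Cre section 981 spots with 2845826 UMIs. A spot covers a small area with several cells or parts of cells, so a level is that of an area and not of a cell type. After stray spots and spots under 500 UMIs were left out, 1090 and 947 spots stayed. S1pr2 itself gave 154 UMIs over the tissue of the S1pr2fl/fl section, or 29.0 per 1000000 UMIs (CPM; 24.6 to 33.9), and 54 UMIs, or 19.0 CPM (14.2 to 24.8), over that of the K14-Cre section. In the spots richest in keratinocyte genes it gave 21 UMIs (18.1 CPM, 11.2 to 27.7) and 11 UMIs (18.6 CPM, 9.26 to 33.2). In those spots the levels do not differ beyond counting error, so S1pr2 did not check the genotype labels at this depth. Chemosensory receptor genes, which are largely silent in skin, served as a measure of background. Their mean over 1226 genes in keratinocyte-rich spots was 1.07 CPM per gene in the S1pr2fl/fl section and 7.74 in the K14-Cre section.

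Keratinocytes are born in the basal layer, which is marked by keratin 5 (Krt5), and move outwards until they become the dead corneocytes of the stratum corneum, for which filaggrin (Flg) is made in the granular layer. Granular keratinocytes build very long acylceramides and ship them out of the cell, where they form lipid sheets and, bound to protein, a lipid envelope around each corneocyte. Elovl4 lengthens fatty acids to the ultra-long chains, Cers3 joins them to a sphingoid base, and Pnpla1 esterifies them with linoleate to give acylceramide. Abca12 loads lipids into lamellar granules. Alox12b and Aloxe3 oxidise the linoleate in sequence, and Sdr9c7 oxidises their product further. Smpd3 is a neutral sphingomyelinase, which releases ceramide, and Them5 is an acyl-CoA thioesterase of mitochondria. Loss of Alox12b, Aloxe3, Abca12, Cers3, Pnpla1 or Sdr9c7 in humans is a known cause of ichthyosis.

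The 250 bases before the gene start (RefSeq, GRCm38.p6, the assembly known as mm10 in the submitters' processing notes) were at hand for 7 of the 9 genes, all but Aloxe3 and Smpd3. The windows of Pnpla1, which had the lowest counts, of Cers3, the 1 gene that was not lower in the keratinocyte-rich spots of the K14-Cre section per all UMIs, and of Elovl4, the gene with a depth profile of its own, are shown with that of Flg, against which they were set. Each is printed 5′ to 3′ on the strand of its gene, at chr17:28858161-28858410 (plus strand) for Pnpla1, chr7:66743254-66743503 (plus) for Cers3, chr9:83806306-83806555 (minus) for Elovl4 and chr3:93273296-93273545 (plus) for Flg. Capitals mark matches to an AP-1 motif (TGANTCA), a grainyhead motif (AACNGGTT), a KLF-type motif (CCACCC) or a C/EBP motif (TTNNGNAA), read on both strands.
Pnpla1: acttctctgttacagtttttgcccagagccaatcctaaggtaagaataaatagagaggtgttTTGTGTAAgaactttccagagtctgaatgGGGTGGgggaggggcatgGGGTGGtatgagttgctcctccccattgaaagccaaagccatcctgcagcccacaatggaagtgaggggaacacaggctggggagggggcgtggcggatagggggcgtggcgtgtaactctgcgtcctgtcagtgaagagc
Cers3: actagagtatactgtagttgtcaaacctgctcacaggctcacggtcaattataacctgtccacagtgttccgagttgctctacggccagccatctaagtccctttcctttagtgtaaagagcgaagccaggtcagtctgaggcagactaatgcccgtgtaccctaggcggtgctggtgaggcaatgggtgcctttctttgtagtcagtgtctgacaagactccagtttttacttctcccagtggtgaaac
Elovl4: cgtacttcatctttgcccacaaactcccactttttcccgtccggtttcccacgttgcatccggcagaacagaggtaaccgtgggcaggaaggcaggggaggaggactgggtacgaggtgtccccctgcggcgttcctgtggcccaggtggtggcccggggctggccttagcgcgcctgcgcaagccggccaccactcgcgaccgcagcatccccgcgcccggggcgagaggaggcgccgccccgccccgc
Flg: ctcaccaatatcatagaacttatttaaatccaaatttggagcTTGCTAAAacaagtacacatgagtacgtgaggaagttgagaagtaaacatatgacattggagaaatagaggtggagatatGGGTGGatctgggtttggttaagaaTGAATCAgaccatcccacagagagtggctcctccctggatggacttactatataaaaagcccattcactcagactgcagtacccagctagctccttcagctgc

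The Flg window held 1 AP-1 match, TGAATCA, which lies 103 to 97 bases before the start. None of the 7 windows of the barrier lipid genes held an AP-1 or a grainyhead match, against 6.75% and 1.79% of all 32851 promoters of the table. A KLF-type match was found in 1 of the 7, with 2 matches in Pnpla1, against 28.1% of all promoters. A C/EBP match was found in Pnpla1 (TTGTGTAA) and Them5 (TTCTGGAA), 2 of 7 against 36.9%. The looser E-box motif CANNTG, which is not in capitals, was found in 4 of 7 against 66.2%. The GC content of the windows was 49.6% for Cers3 and Sdr9c7, 53.2% for Abca12, 54% for Pnpla1, 54.8% for Them5, 66% for Alox12b and 69.6% for Elovl4, where the median of all promoters was 52.4%. Elovl4 was thus the most GC-rich of the 7, above 90.2% of all promoters. These matches describe letters in a short window and not binding.

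Over skin depth, 8 of the 9 genes were highest in the uppermost tissue of the S1pr2fl/fl section and lower in every deeper pool of spots, as Flg was. Elovl4 peaked below the surface in both sections. Depth was counted in array rows below the uppermost tissue spot of the same or a neighbouring array column, and spots were pooled into 0-1, 2-3, 4-5, 6-7 and 8 or more rows. For S1pr2fl/fl, these pools held 178, 191, 184, 171 and 366 spots. Rows 0 to 3 held 39.0% of all UMIs of that section and 39.1% of the K14-Cre section, and more than 50% of the UMIs of 9 of 9 genes in S1pr2fl/fl and of 8 of 9 in K14-Cre. Of all genes with at least 50 UMIs, 9.33% of 10766 and 27.2% of 9517 had more than 50% there. In the K14-Cre section Aloxe3 (28 UMIs), Smpd3 (26 UMIs) and Pnpla1 (9 UMIs) were under that minimum, and each of the other genes had more than 50%. The intervals of the share held 50% for Elovl4 in the S1pr2fl/fl section (49.6 to 51.8%) and for Smpd3 in the K14-Cre section (40.6 to 79.8%). The S1pr2fl/fl section curls at one end, so that the uppermost spot there is not always the skin surface.

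Sdr9c7, the dehydrogenase that acts after both lipoxygenases, fell from 698 CPM (644 to 755) at rows 0-1 over 342, 179 and 145 to 127 CPM (109 to 147) at 8 or more rows in the S1pr2fl/fl section. Alox12b fell from 308 to 74.6 CPM between the same pools, Aloxe3 from 90.2 to 17.6 and Abca12 from 466 to 81.6. For the genes that make the ceramide itself, Cers3 fell from 347 to 103 CPM and Pnpla1 from 53.0 to 10.6. Them5 fell from 170 to 30.9 CPM and Smpd3 from 109 to 15.5. The log2 ratio of the uppermost over the deepest pool ranged from 1.75 (1.46 to 2.04) for Cers3 to 2.82 (2.14 to 3.56) for Smpd3 over these 8 genes, where it was 2.47 for Flg and 1.20 for Krt5. For Cers3 and Alox12b the interval lay below the value of Flg and above that of Krt5. For the others, Aloxe3, Abca12, Pnpla1, Sdr9c7, Them5 and Smpd3, it held the value of Flg and lay above that of Krt5. The deepest pool held Flg at 1707.5 CPM, close to Krt5 at 1715 CPM, and this level limits the ratio of Flg. A ratio near that of Flg thus does not show that a gene lies where Flg does.

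Of these 8 genes, 6 were higher at the top of the K14-Cre section with an interval clear of 0, on far fewer UMIs, and Smpd3 and Pnpla1 were not placed in depth. The share of all genes with such a ratio was not counted. Background rose towards the top of this section too, with the mean receptor gene at 8.22 CPM at rows 0-1 and 4.38 in the deepest pool. An interval clear of 0 is thus not always clear of background, as for Them5, with a lower end of 0.81. Cers3 fell from 415 CPM (362 to 474) at rows 0-1 over 105, 36.4 and 17.1 to 21.8 CPM (11.6 to 37.3) at the deepest pool, a log2 ratio of 4.25 (3.45 to 5.18). Abca12 fell from 122 to 6.71 CPM, a log2 ratio of 4.18 (2.76 to 6.10), and Sdr9c7 from 223 to 25.2 CPM. Krt5 had a log2 ratio of 4.20 (3.96 to 4.45) and Flg one of 2.46 (2.05 to 2.90) in this section. The intervals of Cers3 and Abca12 held the value of Krt5 there and lay above the value of Flg, but that of Abca12 overlapped the interval of Flg. The ratio of Flg is limited by its level in deeper tissue. It stood at 28.8 CPM in spots rich in muscle genes and 109 CPM in those rich in fat genes, against 479 CPM in keratinocyte-rich spots. A ratio nearer to that of Krt5 thus does not show that a gene lies where Krt5 does. Alox12b (101 to 21.8 CPM) and Them5 (57.1 to 15.1 CPM) had log2 ratios of 2.21 and 1.92, below that of Krt5 and with intervals that held that of Flg. Aloxe3 gave 15 UMIs at rows 0-1 and 0 at the deepest pool, and Smpd3 gave 12 and 5, a log2 ratio of 1.45 with an interval that held 0 (-0.16 to 3.30). Pnpla1 gave 9 UMIs in all, 4 of them in rows 0 to 3, so that a share of 44.4% (13.7 to 78.8%) does not place it in depth.

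Elovl4, the elongase, had another profile. In the S1pr2fl/fl section it rose from 1505 CPM (1426 to 1588) at rows 0-1 to 2200 (2116 to 2287) at rows 2-3, was still at 1882 at rows 4-5, and fell to 1050 and 782 CPM below. In K14-Cre it rose from 636 CPM (570 to 708) to 1203 (1116 to 1296) and then fell to 238, 91.1 and 127 CPM. Its intervals at rows 0-1 and 2-3 did not overlap in either section. Rows 0 to 3 held 50.7% of its UMIs in the S1pr2fl/fl section, the lowest share of the 9 genes there, and 79.4% in the K14-Cre section. Krt5 also peaked at rows 2-3 in the S1pr2fl/fl section (4980 CPM, against 3939 at rows 0-1), but at rows 0-1 in the K14-Cre section (4595 against 2574 CPM).

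**Figure D1:**
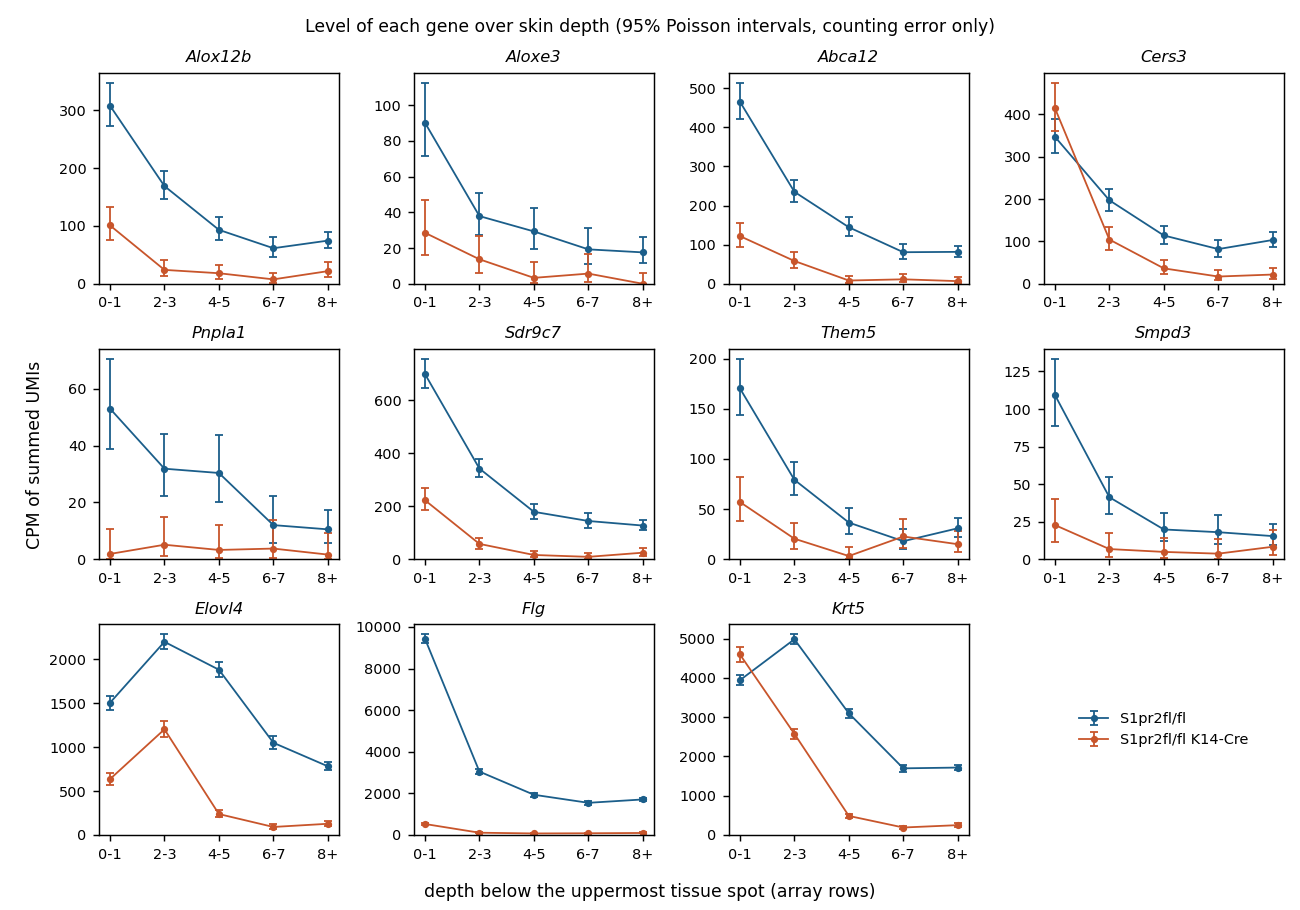
Level of each gene (CPM of summed UMIs, vertical axes on a scale of their own per gene) against depth below the uppermost tissue spot in array rows, for the S1pr2fl/fl (blue) and S1pr2fl/fl K14-Cre (orange) section. Points are pools of spots and bars are 95% Poisson intervals. Elovl4 peaks at rows 2-3 in both sections (2200 and 1203 CPM), and Cers3 is the gene whose 2 curves meet at rows 0-1 (347 and 415 CPM).

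On the map of the spots, the summed level of the 8 other genes formed a line along the upper edge of both sections, while spots rich in Elovl4 lay as patches below that edge. Summed over the 8 genes, the level fell from 2242 CPM (2144 to 2342) at rows 0-1 to 461 CPM (427 to 498) at 8 or more rows in the S1pr2fl/fl section, a log2 ratio of 2.28 (2.15 to 2.41). For K14-Cre it fell from 971 CPM (889 to 1059) to 101 CPM (76.8 to 130), a log2 ratio of 3.27 (2.88 to 3.68).

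**Figure D2:**
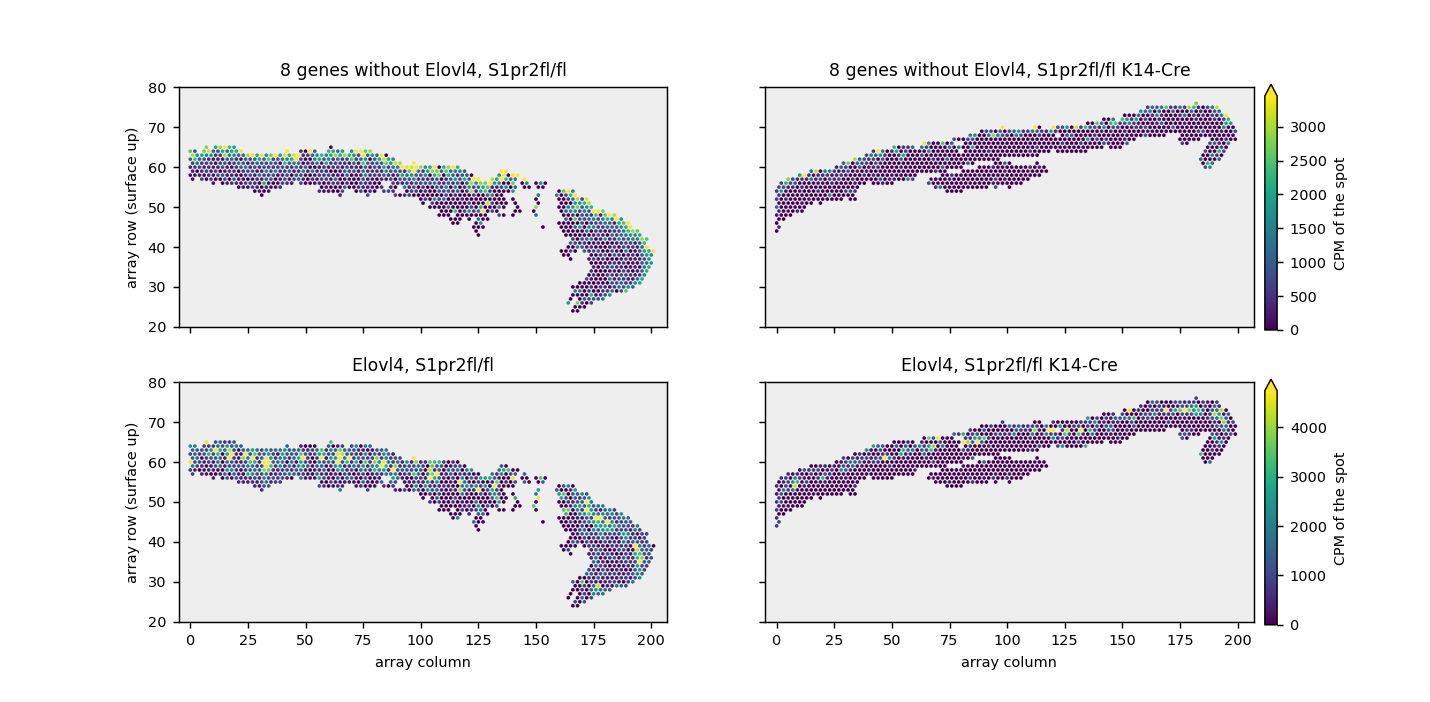
CPM of each spot by array column and array row, with the skin surface towards the top, for the sum of 8 genes without Elovl4 (top) and for Elovl4 (bottom) in the S1pr2fl/fl (left) and S1pr2fl/fl K14-Cre (right) section. Colours are capped, so that the brightest spots share 1 colour. The 8 genes line the upper edge, and the brightest Elovl4 spots lie beneath it.

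To compare the epidermis with the rest of the skin, the 20% of spots with the highest share of UMIs from 17 keratinocyte genes were taken as keratinocyte-rich. The list holds none of the 9 genes and neither Flg nor Krt5. These were 218 spots with 1158788 UMIs in the S1pr2fl/fl section and 189 spots with 593022 UMIs in the K14-Cre section, and 94.5% and 99.5% of these spots lay in rows 0 to 3. The limit fell between 101533 and 101732 CPM of the keratinocyte list in the S1pr2fl/fl section, and between 38580 and 38804 CPM in the K14-Cre section, so spots with a lower keratinocyte share counted as rich in K14-Cre. The median UMIs of a rich and of another spot were 3776.5 and 4435.5 for S1pr2fl/fl and 2372 and 2381.5 for K14-Cre.

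Of the 9 genes, 8 were at least 2-fold higher in keratinocyte-rich than in the other spots of the S1pr2fl/fl section, with an interval above 0, where 4.78% of the 10766 genes with at least 50 UMIs were. Smpd3 had the highest ratio of the 9, at 99.2 CPM (115 UMIs) against 21.0, a log2 ratio of 2.24 (1.83 to 2.66). Them5 stood at 160 against 37.1 CPM (log2 2.11), Sdr9c7 at 677 against 172 (1.98), Alox12b at 322 against 83.5 (1.95) and Aloxe3 at 84.6 against 23.2 (1.87). Abca12 stood at 434 against 123 CPM (1.82) and Cers3 at 349 against 112 (1.64). Pnpla1, at 44.0 against 21.2 CPM, had the lowest ratio of these 8 (1.05, 0.52 to 1.57). These 8 ratios lay between that of Krt5 (0.53) and that of Flg (2.27). Over all genes tested the median log2 ratio was -0.62, and over the 9 genes it was 1.87.

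Of the same genes, 7 were at least 2-fold higher in the keratinocyte-rich spots of the K14-Cre section, where 12.4% of the 9517 genes with at least 50 UMIs were. With the same minimum for the 9 genes, 5 of 6 were. Abca12 stood at 143 CPM (85 UMIs) against 12.5 in the other spots, a log2 ratio of 3.52 (2.89 to 4.19). Cers3 stood at 408 CPM (242 UMIs) against 36.1 (3.50, 3.13 to 3.88) and Sdr9c7 at 209 against 25.4 (3.04, 2.58 to 3.52). The intervals of these 3 genes lay above their values in the S1pr2fl/fl section, and that of Krt5 did too (2.65, against 0.53), while Flg had ratios of 2.43 and 2.27. The keratinocyte list itself fell from 70643 CPM in rich spots to 7985 in the others of the K14-Cre section, and from 140730 to 40673 in the S1pr2fl/fl section. Alox12b stood at 84.3 against 20.1 CPM (2.07), Them5 at 54.0 against 14.7 (1.88), Aloxe3 at 27.0 against 5.35 (2.34, from 16 and 12 UMIs) and Smpd3 at 20.2 against 6.24 (1.70, from 12 and 14 UMIs). Pnpla1 gave 1 UMI in the rich spots and 8 in the others, or 1.69 and 3.57 CPM, below the mean receptor gene of 7.74 CPM in the rich spots, so that its level there cannot be told from background.

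Of 19 other barrier lipid genes, 8 were at least 2-fold higher and 2 lower in the keratinocyte-rich spots of the S1pr2fl/fl section, with a median log2 ratio of 0.97, and of the 18 with at least 50 UMIs in the K14-Cre section 13 were higher and 1 lower, with a median of 1.78. Tgm1, the transglutaminase that links the cornified envelope, stood at 849 against 298 CPM (1.51) and at 1379 against 114 CPM (3.60), and Nipal4, a membrane transporter needed for the barrier, at 345 against 136 CPM (1.35) and 243 against 41.0 CPM (2.57). Fa2h, which hydroxylates fatty acids, was lower in both (-3.34 and -1.23), and Psap in the S1pr2fl/fl section (-1.74). Of the late differentiation genes, 11 of 12 and 9 of 9 were higher, with medians of 2.13 and 2.71.

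Elovl4 was the gene that did not pass in either section. It stood at 1349 CPM (1283 to 1417) in keratinocyte-rich and 1491 CPM (1454 to 1529) in the other spots of the S1pr2fl/fl section, a log2 ratio of -0.14 (-0.23 to -0.06). With K14-Cre it stood at 656 CPM (592 to 725) against 408 (382 to 435), a log2 ratio of 0.69 (0.51 to 0.86). So it was a little lower in the rich spots of one section and higher in those of the other, a difference between sections that was not tested. Over the 9 alternative settings its ratio ranged from -0.15 to 0.29 in the S1pr2fl/fl section, on either side of 0, and from 0.53 to 1.34 in the K14-Cre section.

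The share of spots with at least 1 UMI followed the levels. After each spot was thinned to 1000 UMIs, which left 193 of 218 rich spots in the S1pr2fl/fl and 173 of 189 in the K14-Cre section, Sdr9c7 was found in 50.8% (43.5 to 58.0%) and 15.0% (10.1 to 21.2%) of them, where 82.1% and 34.9% had it unthinned. As a region that should lack these genes, the 20% of the other spots with the highest share of muscle genes were used, an addition made after seeing the data. In these muscle-rich spots, with median UMIs of 3185 and 2695.5, Sdr9c7 was found in 13.9% and 0.72% after thinning, 26.4% and 2.63% unthinned. Flg was found in 54.7% of the muscle-rich spots of the S1pr2fl/fl section and 5.75% of those of the K14-Cre section, and the levels of the other spots hold this background. In the K14-Cre section the intervals of the 2 shares overlapped for Smpd3 (2.89% of rich and 2.16% of muscle-rich spots) and Pnpla1 (0.58% and 0.72%). They also overlapped there for Aloxe3 (2.89% and 0%), Them5 (5.20% and 0%) and Abca12 (8.09% and 1.44%). In the S1pr2fl/fl section those of Pnpla1 did (4.15% and 0.73%). These genes were not clearly above the background by this measure.

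Where Elovl4 lay was followed with marker lists of other skin structures. The 10% of the other spots with the highest share of 7 sebaceous gland genes (87 and 76 spots, chosen after seeing the data) held Elovl4 at 4315 CPM (2146 UMIs) in the S1pr2fl/fl and 1688 CPM (383 UMIs) in the K14-Cre section. This was higher than in keratinocyte-rich spots by a log2 ratio of 1.68 (1.58 to 1.77) and 1.36 (1.16 to 1.57), and higher than in the remaining spots by 1.97 (1.89 to 2.05) and 2.68 (2.48 to 2.87). Of the 8 other genes, none was at least 2-fold higher in the sebaceous-rich than in the keratinocyte-rich spots with an interval above 0, and 7 in the S1pr2fl/fl and 5 in the K14-Cre section were at least 2-fold lower. Of all genes with at least 50 UMIs over both regions, 8.04% of 5595 and 15.3% of 3285 were lower, and 21.8% and 15.4% were higher. With the same minimum, 4 of the 4 other genes left in the K14-Cre section were lower. Pnpla1 was the exception in the S1pr2fl/fl section, at 38.2 CPM (19 UMIs) against 44.0 CPM, and stood above the remaining spots by a log2 ratio of 1.02 (0.20 to 1.77). In the K14-Cre section Abca12 stood above the remaining spots, at 44.1 CPM (10 UMIs) against 8.93 CPM (18 UMIs), or by 2.30 (1.03 to 3.50) on the log2 scale. Of all genes with at least 50 UMIs, a minimum that Abca12 did not reach, 3.47% and 10.6% were at least 2-fold higher than in the remaining spots. The keratinocyte list stood at 40291 CPM in the sebaceous-rich spots of the S1pr2fl/fl section, close to its 40673 in all other spots. In the K14-Cre section it stood at 15164 CPM in the sebaceous-rich spots, above its 7985 in all other spots, and its part in the Elovl4 level there was not tested.

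Over the other spots, Elovl4 correlated with the sebaceous list at r = 0.41 in the S1pr2fl/fl section (872 spots) and r = 0.40 in the K14-Cre section (758 spots), on log2(CPM + 100). With the keratinocyte list its r was 0.29 in the S1pr2fl/fl section, below that with the sebaceous list, and 0.46 in the K14-Cre section, above it. For the 8 other genes, r with the sebaceous list was at most 0.07 in the S1pr2fl/fl section, and in the K14-Cre section it was highest for Abca12 (0.12). These spots share a library and their depth, so r is a description. Among other lipid genes, Fa2h was at 2596 CPM in the sebaceous-rich and 60.4 CPM in the keratinocyte-rich spots of the S1pr2fl/fl section, and at 926 against 72.5 CPM in the K14-Cre section. Slc27a4, a fatty acid transporter, stood at 871 against 358 CPM and 701 against 253 CPM. Without the sebaceous-rich spots, Elovl4 was higher in keratinocyte-rich than in other spots by a log2 ratio of 0.29 in the S1pr2fl/fl and 1.31 in the K14-Cre section. This turns the direction in S1pr2fl/fl and passes the 2-fold limit in K14-Cre. As Elovl4 was higher in the spots left out than in the remaining ones, a rise of both ratios was bound to follow.

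**Figure D3:**
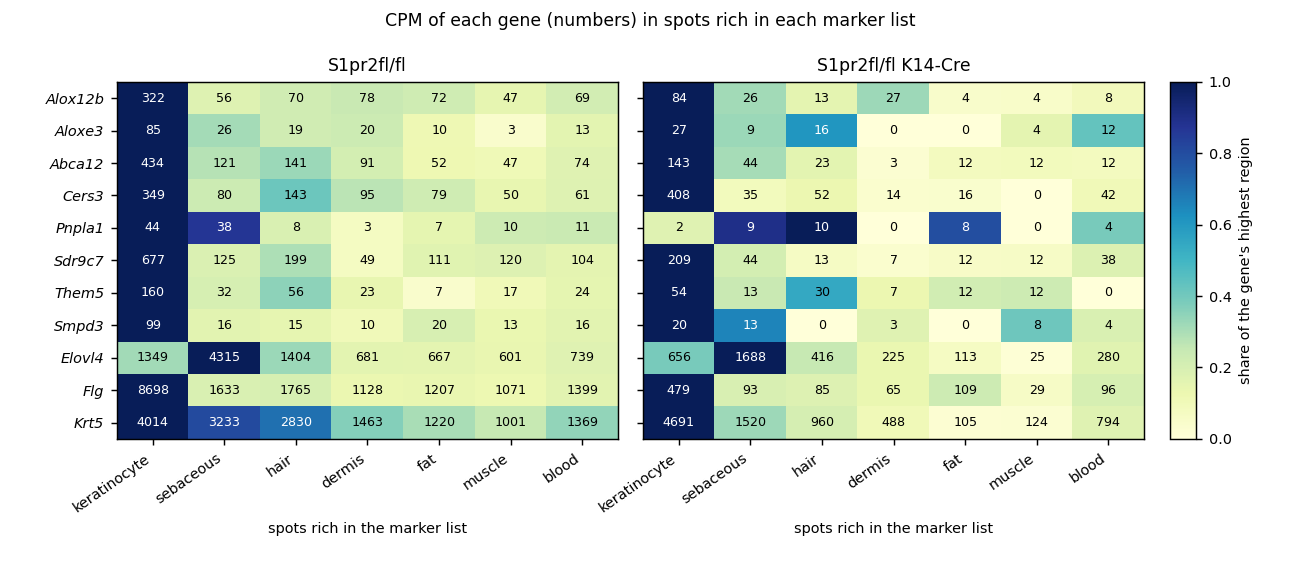
Numbers are CPM of each gene in spots rich in a marker list, and the colour is the share of the highest level of that gene in that section. Keratinocyte-rich spots are the upper 20% of spots by the list and the others the upper 10% of the remaining spots by theirs, and a spot may be in several. Elovl4 is highest in sebaceous-rich spots in both sections (4315 and 1688 CPM), and the Pnpla1 row of the K14-Cre section rests on 0 to 3 UMIs a region.

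To ask which genes follow Flg and which follow Krt5, the keratinocyte-rich spots were ordered by the ratio of Flg to Krt5 and cut into 3 groups of about equal size. By this measure few of the 9 genes moved with either. The Flg-rich and Krt5-rich groups held 73 and 72 spots in the S1pr2fl/fl section and 63 and 63 in the K14-Cre section. The median depth was row 0 and row 1 in S1pr2fl/fl and row 1 in both groups of K14-Cre, so the groups differed little in skin depth. They differed in UMIs, with medians per spot of 2563 and 4833.5 in S1pr2fl/fl and 2023 and 2395 in K14-Cre. In S1pr2fl/fl, r with the total UMIs of a spot was 0.49 for Krt5 and 0.02 for Flg. In K14-Cre, 85 of the 189 rich spots held a Flg UMI, so the others were ordered by Krt5 alone. Flg fell from 18708 CPM in the Flg-rich to 1554 in the Krt5-rich group of the S1pr2fl/fl section, and Krt5 rose from 2121 to 5302, values that the ordering itself fixed. For K14-Cre, Flg gave 252 and 3 UMIs, or 1431 and 13.8 CPM, and Krt5 stood at 3327 and 6168 CPM. A gene was said to follow Flg when it was at least 2-fold higher in the Flg-rich group with an interval above 0, and Krt5 in the opposite case.

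Of the 9 genes 1 followed Flg in the S1pr2fl/fl section, Pnpla1, and none followed Krt5. Among the 2413 genes with at least 50 UMIs over both groups, 4.64% were at least 2-fold higher in the Flg-rich group and 12.2% lower. Pnpla1 stood at 68.8 CPM (20 UMIs) in the Flg-rich, 45.5 (20 UMIs) in the middle and 25.7 (11 UMIs) in the Krt5-rich group, a log2 ratio of 1.42 (0.29 to 2.63). It was under the minimum of 50 UMIs, and with that minimum 0 of 8 genes followed either. Abca12 stepped from 595 over 423 to 336 CPM, a log2 ratio of 0.82 (0.50 to 1.15), and Smpd3 from 127 over 109 to 70.0 CPM (0.86, 0.13 to 1.61). Sdr9c7 stood at 777, 697 and 590 CPM (0.40, 0.13 to 0.66). The intervals of these 3 genes lay above 0 but their ratios under 2-fold. Alox12b (0.27), Aloxe3 (0.35), Cers3 (0.28) and Them5 (0.38) had intervals that held 0, and Elovl4, at 1406, 1302 and 1358 CPM, had a log2 ratio of 0.05 (-0.14 to 0.24), the nearest to 0 of the 9.

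By the same rule 2 genes followed Flg in the K14-Cre section, on very few UMIs. Aloxe3 gave 6, 10 and 0 UMIs from the Flg-rich to the Krt5-rich group, and Smpd3 gave 8, 4 and 0, with lower ends of the log2 interval of 0.54 and 1.07. With the minimum of 50 UMIs 0 of 4 genes followed either, where 2.59% of 1349 genes were at least 2-fold higher and 4.52% lower. Krt5 itself fell short of the 2-fold limit in this section (-0.89, -1.03 to -0.75). A gene that moved just as Krt5 did would thus not be called here, and the lack of such calls cannot show that no gene followed Krt5. Cers3 stood at 454 CPM (80 UMIs), 530 (106 UMIs) and 258 (56 UMIs), a log2 ratio of 0.81 (0.30 to 1.33), so its interval lay above 0. Alox12b went the other way, at 62.5, 94.9 and 92.3 CPM, with an interval that held 0 (-0.56, -1.77 to 0.57). Sdr9c7 (0.38), Elovl4 (0.30), Abca12 (0.05) and Them5 (0.04) had intervals that held 0 as well. Pnpla1 gave 1 UMI over the 3 groups.

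Genes of known late and basal function set the scale. Of the late differentiation genes with at least 50 UMIs, 9 of 11 were at least 2-fold higher in the Flg-rich group of the S1pr2fl/fl section and 3 of 6 in that of the K14-Cre section, with median log2 ratios of 1.66 and 0.96. Loricrin (Lor) had 2.52 and 1.86, hornerin (Hrnr) 1.97 and 1.62, and the protease Casp14 1.22 and 1.22. Tgm3, a transglutaminase of the same list, had -0.56 and -0.34. Of the basal genes, 0 of 5 were at least 2-fold higher in either section and 1 of 5, the integrin Itga6, was lower in the S1pr2fl/fl section (-1.03), with medians of -0.63 and -0.62. Krt15, a basal keratin with 30 and 10 UMIs in the groups of the K14-Cre section and so under the minimum, was higher in the Flg-rich group there (1.88, 0.81 to 3.08). The medians of the 8 and 4 barrier lipid genes with at least 50 UMIs were 0.36 and 0.34, and those of all genes tested -0.17 and -0.08.

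Most other genes of barrier lipid synthesis also moved little. Of this list, 17 in the S1pr2fl/fl and 12 in the K14-Cre section had at least 50 UMIs, and 1 in each was at least 2-fold higher in the Flg-rich group, with median log2 ratios of 0.13 and 0.23. It was Abhd12b, a serine hydrolase, in both, at 478 against 177 CPM in the S1pr2fl/fl (1.43, 1.02 to 1.85) and 261 against 87.7 CPM in the K14-Cre section (1.57, 0.78 to 2.43). For S1pr2fl/fl 1 of the 17 was lower, Psap, the precursor of sphingolipid activator proteins (-1.16, -1.64 to -0.71). Fa2h was lower too, on 9 against 34 UMIs (-1.36), under the minimum. In K14-Cre it gave 0 against 26 UMIs, with an upper end of the log2 interval of -2.41, also under the minimum. By the rule without that minimum, Fa2h thus followed Krt5 in both sections. Smpd1, the acid sphingomyelinase, had 0.88 (0.61 to 1.15) and 0.19 (-0.23 to 0.62).

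**Figure D4:**
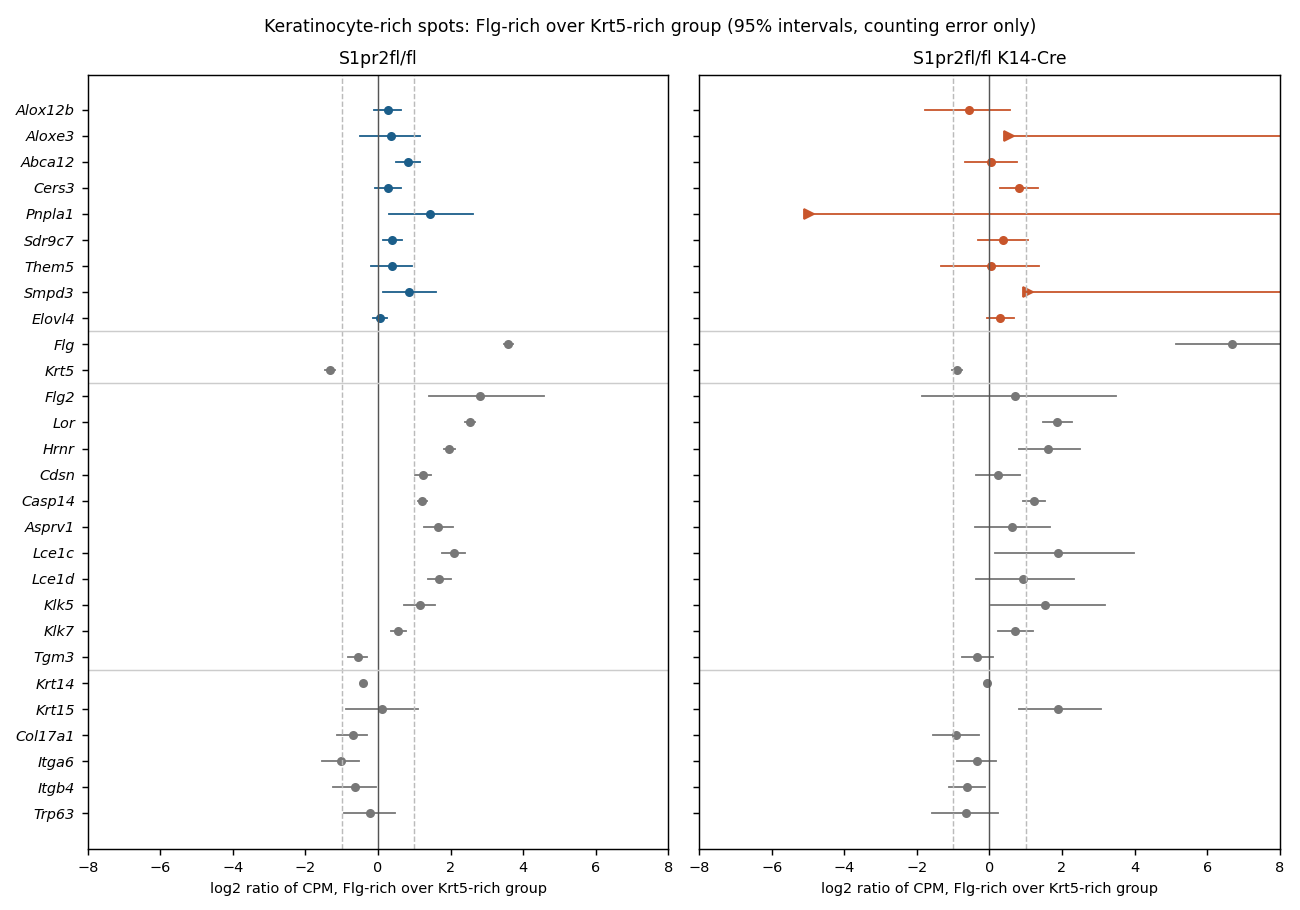
Log2 ratio of CPM in the Flg-rich over the Krt5-rich group of keratinocyte-rich spots, with 95% intervals (counting error only), for the 9 genes in colour and for Flg and Krt5, late differentiation genes and basal genes in grey, in each section. Dashed lines mark 2-fold, and a triangle marks the lower end where the Krt5-rich group had 0 UMIs. Of the coloured points in S1pr2fl/fl, 8 sit between 0.05 and 0.86 and the one of Pnpla1 lies past 2-fold (1.42), where most late differentiation genes sit beyond 2-fold.

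The 4 segments into which the rich spots of each section were cut along its length, a description chosen after seeing the data, gave a like direction for some genes. For S1pr2fl/fl, Abca12, Cers3 and Sdr9c7 were higher in the Flg-rich spots in 4 of 4 segments (log2 ratios of 0.29 to 1.82, 0.40 to 0.76 and 0.14 to 0.62), and Elovl4 in 2 of 4 (-0.86 to 0.17). Alox12b, Aloxe3 and Smpd3 were higher in 3 of 4, Them5 in 3 of the 3 segments that gave a ratio, and Pnpla1 in 1 of 2 (-0.44 to 0.64). A segment with 0 UMIs in either group gave no ratio. For Them5 this segment held 0 UMIs in Flg-rich and 3 in Krt5-rich spots. Pnpla1 had one with 15 and 0 UMIs and one with 0 in both. Its whole Flg-rich group held 20 UMIs, so 1 segment gave most of them. With K14-Cre, Cers3 was higher in 4 of 4 (0.15 to 1.78), Sdr9c7 in 3 of 4 and Elovl4 in 2 of 4. Alox12b and Them5 were lower in 3 of 4 segments there and Abca12 in the 2 that gave a ratio (-0.42 and -0.20). In its other segments Abca12 gave 0 against 1 and 12 against 0 UMIs in Flg-rich against Krt5-rich spots. Aloxe3, Pnpla1 and Smpd3 gave no ratio, as their Krt5-rich spots held 0 UMIs. In the Flg-rich spots of the 4 segments, Aloxe3 gave 1, 1, 4 and 0 UMIs. Smpd3 gave 1, 0, 4 and 3 there, and Pnpla1 0, 1, 0 and 0. Segments share a section and are not replicates. Spot by spot, the 9 genes hardly moved with either marker: over keratinocyte-rich spots, r with Flg ran from -0.12 (Sdr9c7) to 0.13 (Abca12) in the S1pr2fl/fl section (218 spots), and r with Krt5 from -0.06 (Smpd3) to 0.20 (Them5). Over the 189 rich spots of K14-Cre, r with Flg ran from -0.12 (Alox12b) to 0.20 (Smpd3), and r with Krt5 from -0.20 (Smpd3) to 0.08 (Alox12b). Flg and Krt5 themselves had r = 0.00056 and -0.15, in counts this sparse, and the 36 pairs of the 9 genes had median r of 0.08 and 0.04.

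Over all kept spots, the genes whose level was most like the sum of the 9 were epidermal. Among 2775 genes with at least 200 UMIs in each section, Krt14 (mean r of the sections 0.52), Fabp5 (0.51), Lgals7 (0.50), Krtdap (0.50) and Dsp (0.49) came first, followed by S100a14, Urah, Krt17, Calm4 and S100a8 (0.44). Krt14 and Krt17 are keratins, Dsp is a desmosomal protein and Fabp5 an epidermal fatty acid binding protein. For the sum without Elovl4, Krt14, Calm4, Krtdap, S100a8 and Krt6b came first (0.51 to 0.50), and the late protease Casp14 entered the first 10 (0.48). These values are over 1090 and 947 spots, and every epidermal gene varies with how much epidermis a spot covers.

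Between the genotypes, 8 of the 9 genes were at least 2-fold lower in the keratinocyte-rich spots of the K14-Cre section, per all UMIs, and none was higher, where 13% of the 5453 genes with at least 50 UMIs were lower and 17.3% higher. Cers3 was the exception. Alox12b stood at 322 CPM (373 UMIs) in the S1pr2fl/fl and 84.3 CPM (50 UMIs) in the K14-Cre section, a log2 ratio of -1.93 (-2.39 to -1.50), and Aloxe3 at 84.6 and 27.0 CPM (-1.65). Sdr9c7 stood at 677 and 209 CPM (-1.70, -1.98 to -1.42), and the transporter Abca12 at 434 and 143 CPM (-1.60, -1.95 to -1.26). Smpd3 stood at 99.2 and 20.2 CPM (-2.29), Them5 at 160 and 54.0 (-1.57) and Elovl4 at 1349 and 656 (-1.04, -1.20 to -0.88). Pnpla1 gave 51 UMIs and 1 UMI, a log2 ratio of -4.71 with an interval of -10.04 to -2.16. Cers3, the ceramide synthase, stood at 349 CPM (404 UMIs) and 408 CPM (242 UMIs), a log2 ratio of 0.23 (-0.01 to 0.46). Krt5 had 0.22 (0.16 to 0.29) and Flg -4.18 (-4.36 to -4.01), 8698 against 479 CPM. Fewer granular keratinocytes in a spot and less RNA per cell cannot be told apart in such spots.

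The levels of other lists in the same spots moved too. The summed keratinocyte list was at 140730 CPM in the rich spots of the S1pr2fl/fl and 70643 CPM in those of the K14-Cre section, with 17 of 17 genes above 0 in both. Its genes did not move evenly: 8 of the 17 were at least 2-fold lower and 1 higher, with a median log2 ratio of -0.61. The dermis list, with 8 of 8 genes above 0, was at 3029 and 6140 CPM, the muscle list, with 7 of 7, at 690 and 2086 CPM, and the receptor genes at 1307 and 9489 CPM in sum, a log2 ratio of 2.86 (2.78 to 2.94). The myeloid list, with 7 of 7 genes above 0, was lower in sum in K14-Cre, at 31564 and 8937 CPM, a log2 ratio of -1.82 (-1.86 to -1.78). Its genes did not move evenly either: 5 reached the minimum of 50 UMIs, and of these 2 were called lower and 0 higher. Their median log2 ratio was -0.67, so the sum does not stand for every gene of that list. The list holds S100a8 and S100a9, and S100a8 alone gave 29464 UMIs over the S1pr2fl/fl and 4962 over the K14-Cre section. These S100a8 counts are not limited to keratinocyte-rich spots, so they do not give its part in the sums above. In S1pr2fl/fl, 2 genes of the list were at least 2-fold higher and 4 lower in keratinocyte-rich than in other spots. S100a8 was also among the genes most like the sum of the 9, so the sum is not a measure of myeloid cells alone. The part of each list in the lower levels was not tested. Per UMI of the keratinocyte list, every log2 ratio rises by 0.99. Then 2 of the 9 genes stayed at least 2-fold lower, Pnpla1 (-3.71) and Smpd3 (-1.30), Alox12b was at -0.94 and Elovl4 at -0.05, and Cers3 was at least 2-fold higher (1.22). With the TMM factor of edgeR, which moves every ratio by -0.85, or with the mean receptor gene taken off, the same 8 genes were lower and none higher. The Cers3 level thus turned with the scaling, from -0.63 with TMM to 1.22 per keratinocyte list. The share of all genes called was counted per all UMIs only. Counts under the other scalings, here and below, thus have no such share beside them and cannot set the 9 genes apart from other genes. Per all UMIs the median log2 ratio over all genes tested was 0.11, and TMM lowers it by the same 0.85.

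**Figure D5:**
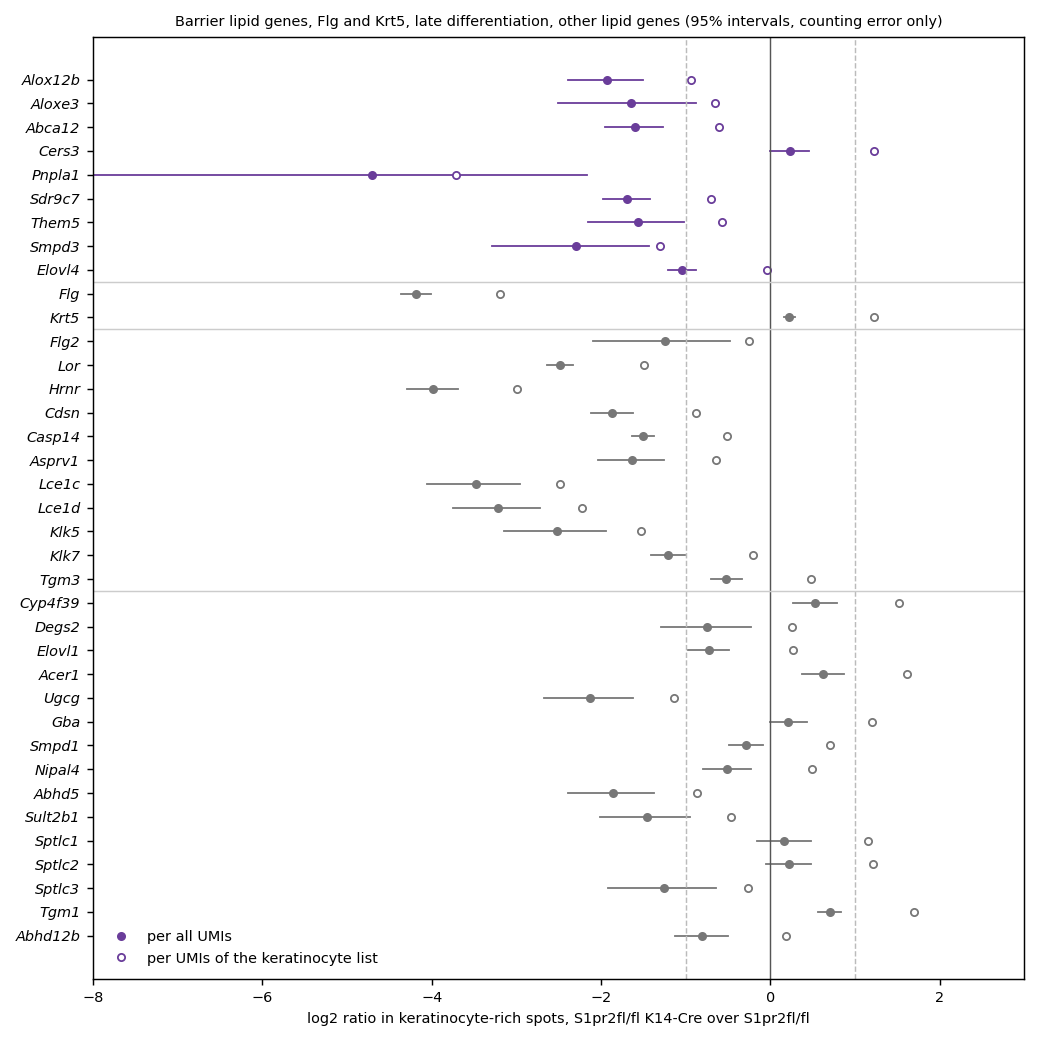
Log2 ratio of the S1pr2fl/fl K14-Cre over the S1pr2fl/fl section in keratinocyte-rich spots, per all UMIs (filled, with 95% counting intervals) and per UMIs of the keratinocyte list (open), for the 9 genes in purple and for Flg and Krt5, late differentiation genes and other barrier lipid genes in grey. Dashed lines mark 2-fold, and the bar of Pnpla1 runs past the axis. Of the purple points, the one of Cers3 lies right of 0 (0.23).

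By group of spots the 8 genes were lower as well, with Abca12, Elovl4 and Aloxe3 short of the limit in some groups. The groups were ranked within each section and are not matched between the sections. Flg stood at 1431 CPM in the Flg-rich group of K14-Cre, below its 1554 CPM in the Krt5-rich group of S1pr2fl/fl. The share of all genes that were lower was not counted by group, so these values cannot set the 9 genes apart. In the Flg-rich group Alox12b had a log2 ratio of -2.56 (-3.60 to -1.66), Sdr9c7 -1.81 and Abca12 -1.71, and in the Krt5-rich group Alox12b had -1.73, Sdr9c7 -1.79 and Abca12 -0.94 (-1.49 to -0.41), short of 2-fold. Elovl4 was at -0.95 and -0.97 in the Flg-rich and middle groups, short of 2-fold, and at -1.20 in the Krt5-rich group. Aloxe3 gave 44 and 10 UMIs in the middle group, where the upper end of its interval was 0.01. Cers3 was at 0.08 (-0.34 to 0.50) in the Flg-rich, 0.87 (0.49 to 1.26) in the middle and -0.46 (-0.93 to -0.01) in the Krt5-rich group. Outside the keratinocyte-rich spots all 9 genes were at least 2-fold lower in the K14-Cre section per all UMIs, where 8.28% of the 12400 genes with at least 50 UMIs were lower and 9.4% higher. Cers3 had a log2 ratio of -1.63 (112 against 36.1 CPM), Abca12 one of -3.30 and Sdr9c7 one of -2.76, beside -1.90 for Krt5 and -4.34 for Flg. These spots are not matched between the sections either, as the limit was set within each section. A spot among them held up to 101533 CPM of the keratinocyte list in the S1pr2fl/fl section and up to 38580 CPM in the K14-Cre section. Their lower levels are thus no separate check of those in keratinocyte-rich spots. The keratinocyte list had -2.35 in these spots (40673 against 7985 CPM). Per UMI of that list none of the 9 stayed at least 2-fold lower, with Abca12 the lowest at -0.95, and Them5 was at least 2-fold higher (1.01).

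Of the 12 late differentiation genes, 11 were at least 2-fold lower in the keratinocyte-rich spots of the K14-Cre section, with a median log2 ratio of -2.18, and Tgm3 (-0.52) was the one that did not pass. Hrnr (-3.98), Lce1c (-3.48), Lor (-2.49) and Casp14 (-1.51) were among them. Of 19 other barrier lipid genes, 5 were lower and none higher, with a median of -0.50 beside 0.11 over all genes tested and -1.65 over the 9. The 5 were Ugcg, the glucosylceramide synthase (258 against 59.0 CPM, -2.13), Lipn, an epidermal lipase (-1.90, from 51 and 7 UMIs), Abhd5, a co-activator of lipid hydrolysis (-1.86), Sult2b1, the cholesterol sulfotransferase (-1.46), and Sptlc3, a subunit of serine palmitoyltransferase (-1.26). The subunits Sptlc1 and Sptlc2 were at 0.16 and 0.22, with intervals that held 0. Tgm1, which links the envelope, was at 0.70 (0.56 to 0.84), the ceramidase Acer1 at 0.62 (0.37 to 0.87) and Cyp4f39, the omega-hydroxylase of ultra-long fatty acids, at 0.53 (0.27 to 0.78), each short of 2-fold. Of the 6 basal genes tested, Itgb4 was higher (1.48) and none lower, with a median of 0.06. Per UMI of the keratinocyte list, 0.99 is added to each of these values, which turns the sign of Tgm3 and of the median of the 19 lipid genes. Then 6 of the 12 late differentiation genes stayed at least 2-fold lower, among them Hrnr (-2.99), Lce1c (-2.49) and Lor (-1.49), and Casp14 was at -0.51. Of the 19 lipid genes 1 stayed lower, Ugcg (-1.13), and 8 were at least 2-fold higher, among them Tgm1 (1.69), Acer1 (1.62), Cyp4f39 (1.52), Sptlc1 (1.15) and Sptlc2 (1.21), and of the 6 basal genes 3 were higher. With TMM, 0.85 is taken off, which turns the sign of Tgm1, Acer1, Cyp4f39, Sptlc1, Sptlc2 and the basal median. Then 12 of the 12 late differentiation genes, 11 of the 19 lipid genes and 2 of the 6 basal genes were lower and none of them higher.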

How the data were processed

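Per the labels and the study's methods, spatial libraries were made with the Visium CytAssist kit for formalin-fixed, paraffin-embedded tissue from sections of 10 μm on capture areas of 11 mm. As deposited, the files hold unnormalised UMI counts of every gene in every spot, made by the authors with Space Ranger 3.0.0 (file header) against mm10 (submitters' processing notes), with the array position of each spot. Partek Flow served for the study's own analysis, and no sections were pooled. Probe-based counts compare a gene with itself between regions, not with other genes.

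Spots in connected groups of at least 20 tissue spots and with at least 500 UMIs were kept. The sections share 357 spot barcodes, which name array positions and not cells. UMIs were summed over regions and divided by all UMIs of the region (CPM). Intervals at 95% are exact Poisson (levels), Clopper-Pearson (shares) and binomial given the summed count (ratios). They were checked on simulated counts drawn from the same counting models, so the check does not cover the variation between spots. A gene was called at 2-fold with an interval excluding 0, with a minimum of 50 UMIs over both regions for all counts over gene lists and over all genes. Spots were ordered by log2((Flg CPM + 100)/(Krt5 CPM + 100)) per spot for the Flg-rich and Krt5-rich groups. With 1 section per genotype no test was run.

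The 9 genes, the gene lists and the comparisons were chosen with earlier results of these data known. Named genes are the 9, Flg and Krt5, list genes with at least 50 UMIs in keratinocyte-rich spots of both sections, and the 10 most alike by Pearson r of log2(CPM + 100). Genes under that minimum are named with their UMIs, a choice made with their values known. Of 20 listed lipid genes 19 were in the matrix. Alternatives changed the share of rich spots, the score, the UMI minimum, the spot filter, the summing, the thinning to 1000 UMIs (seed 1), the groups, the depth measure and the scaling (edgeR 4.0.16 in R 4.3.3). The alternative without sebaceous-rich spots, the minimum of 50 UMIs for the 9 genes and the scalings of the gene lists and of the other spots were added after seeing the data. Tools were Python 3.11.15, numpy 2.4.6, scipy 1.17.1, pandas 2.3.3 and matplotlib 3.10.9.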

Additional observations from a re-analysis of the deposited data

Results flagged for a closer look

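The log2 ratio of Elovl4 in keratinocyte-rich over other spots was -0.14 (-0.23 to -0.06) in the S1pr2fl/fl section and 0.69 (0.51 to 0.86) in the K14-Cre section. It stands out because the intervals lie on opposite sides of 0, and the difference between the sections was not tested. Without the 10% of other spots richest in sebaceous genes the values were 0.29 and 1.31. Those spots were chosen after seeing the data and held Elovl4 at 4315 and 1688 CPM, against 1101 and 264 CPM in the remaining spots. Leaving them out was thus bound to raise both ratios, and their part in the difference was not tested. The median log2 ratio over all genes tested also differed between the sections, at -0.62 and -0.16.

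Sptlc2, a subunit of serine palmitoyltransferase, had a log2 ratio of -0.54 in the Flg-rich over the Krt5-rich group of the S1pr2fl/fl section and of 0.84 in the K14-Cre section, with intervals again on opposite sides of 0. This difference was not tested either.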

How the results depend on the processing

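No paired analysis was possible because each genotype has 1 section. Limits of the values are counting error, spots that mix cell types, and depth: in the K14-Cre section Aloxe3, Pnpla1 and Smpd3 had under 50 UMIs over kept spots. In 9 alternatives, 8 of the 9 genes stayed 2-fold higher in keratinocyte-rich spots of the S1pr2fl/fl section, and 6 to 8 in the K14-Cre section. Which genes followed Flg depended on the setting. In the S1pr2fl/fl section (1 gene, Pnpla1) it was 2 with 30% of spots as rich or with the mean log2(CPM + 100) score (Aloxe3 and Smpd3) or with all kept spots that hold Flg or Krt5 (Pnpla1 and Smpd3), and 0 with the mean of spot CPM, after thinning, with 2 groups in place of 3 or with at least 50 UMIs. For K14-Cre (2 genes, Aloxe3 and Smpd3) it was 1, Smpd3, with 30% of spots, with the log2 score, with 2 groups or with all kept spots that hold Flg or Krt5, 3 (Aloxe3, Pnpla1 and Smpd3) with the mean of spot CPM, and 0 after thinning or with at least 50 UMIs. It stayed 2 with the late differentiation and basal lists in place of Flg and Krt5, with Cers3 in place of Aloxe3. The number on the Krt5 side there, 0, was 1 (Alox12b) with the mean of spot CPM and after thinning, and 4 (Alox12b, Abca12, Sdr9c7 and Elovl4) with all kept spots that hold Flg or Krt5. With all tissue spots, the number of genes with more than 50% of their UMIs in rows 0 to 3 of the S1pr2fl/fl section went from 9 to 0, where a stray spot was the uppermost in 34 of 203 array columns. Between genotypes, 8 genes lower and 0 higher became 2 lower and 1 higher per UMI of the keratinocyte list, where 6 were lower after thinning, 7 with 30% of spots and 8 under the 10 other alternatives. No single value was called in opposite directions.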
